A study of Mus musculus with 10 samples.

Results

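The genes described here code for proteins with which neurons and glia hold on to each other and to the matrix, steer axons and join cells through junctions. They were chosen by name from the platform's probe-to-gene table, as every probe with a single symbol of the cadherin, protocadherin, integrin, semaphorin, Eph, ephrin, plexin, Plxdc, neuropilin, Ncam, contactin, Mdga, connexin, claudin or Jam type. This gave 126 probes for 123 genes, out of 9066 probes for 8726 genes with a single symbol. The name rule also took in Itgb1bp1, Itgb1bp2 and Itgb3bp, which code for integrin-binding proteins and not for integrins, the contactin-associated Cntnap genes and the claudin-domain gene Cldnd1. Of the 123 genes, 3 had more than 1 probe (Cdh13, Cldn10 and Pcdh8).

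RNA came from the midbrain of male DBA/1 mice, an inbred strain in which immunisation with type II collagen leads to arthritis. The collagen group was 8 weeks old when it was injected in the skin with 100 ul of that collagen, mixed with complete Freund's adjuvant (100 ul), and it received lipopolysaccharide (LPS, a bacterial endotoxin) at day 24. The control group was of the same strain, sex and age, received 200 ul of the adjuvant without collagen, and received LPS on the same day. Both groups therefore carried adjuvant and LPS, and the comparison is of collagen on top of them; the labels give the time of death as 31 with an unclear unit, and neither joint scores nor the number of animals behind each RNA are given in the sources used here. Each of 10 arrays held collagen RNA in one dye and control RNA in the other, in 5 dye-swap pairs that stand for 3 biological replicates: replicates 1 and 2 have 2 pairs each, called the first and the second pair here, and replicate 3 has 1 pair. Every value below is a log2 ratio of collagen over control unless it is said to be a ratio of channels. The files name the channels A and B, and A was taken as Cy3 from the order of the labels, so the direction is likely rather than stated: with A as Cy5 every sign would turn.

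Cadherins and protocadherins are calcium-dependent adhesion proteins that bind like molecules on the neighbouring cell, and integrins bind the extracellular matrix and are linked to the actin skeleton by talin and parvin. Semaphorins are guidance cues read by plexins, often with a neuropilin as co-receptor, and ephrins are membrane-bound cues read by Eph receptor kinases. Connexins form gap junction channels between cells, and claudins and junctional adhesion molecules build tight junctions. In the adult brain these families serve synapses, myelin and the barrier of the vessels as well as the wiring laid down during development.

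Of the 126 probes, 44 had a ratio in all 3 replicates and could be tested (34.9%, against 41.1% of all 10080 probes). A further 34 had a ratio in 2 replicates, 20 in 1 and 28 in none, and 3 had a ratio on no array. A ratio needed a signal above background in both channels, so the 44 are those bright enough in both dyes and do not stand for the whole set. Per array, 56 to 106 of the 126 probes had a ratio, and 9 to 38 had a signal in channel A alone, against 0 to 2 in channel B alone. The share in channel A alone was 7.14% to 30.2% of the members and 6.57% to 26.7% of all probes on the array. The tested members were dim: their median signal in the dimmer channel was 1.07 times the local background, against 1.40 times for all 4139 tested probes. Because the RNA is of whole tissue, fewer cells of a type and less RNA per cell cannot be told apart. Of the markers of midbrain dopamine neurons, Th, Ddc, Pitx3, En1, Nr4a2, Lmx1b and En2 had a ratio in every replicate.

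No adhesion, guidance or junction gene passed the test for collagen over control. With limma's test of the 3 replicates against 0, adjusted by Benjamini-Hochberg over all 4139 probes, 0 of 44 members were called, as were 0 of all probes (0%). The members' adjusted p-values lay between 0.827 and 0.997. At an unadjusted p under 0.05 there were 3 of 44 members (6.82%), against 3.94% of all probes. These were the adhesion gene Mdga1 on the higher side and the connexin gene Gjc3 and Plxdc1 on the lower side. The same genes made up the 3 members whose mean was over 0.5 in size with replicates of 1 sign (6.82%, against 0.314%, which is 13 of 4139 probes). These shares changed with the normalisation. They were 6.82% against 1.52% with normexp background correction and 6.82% against 2.25% with median centring. With print-tip loess they were 2.27% against 0.0966%, and with scaling between arrays 6.82% against 0.387%. With median centring the 3 members were Gjc3, Plxdc1 and Cntn6, and Mdga1 averaged 0.16. Of the 44, 10 kept 1 sign in all replicates (22.7%, against 29.7%), 5 on each side, which is no more than among all probes. In all, 20 members were above 0 and 24 below (54.5%), with a median of -0.01, against 59.2% of all tested probes below 0 and a median of -0.02. The 95% interval of the mean lay within a 2-fold change for 41 of the 44 members and within 1.5-fold for 40, against 4111 and 3857 of all 4139 tested probes.

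**Figure D1:**
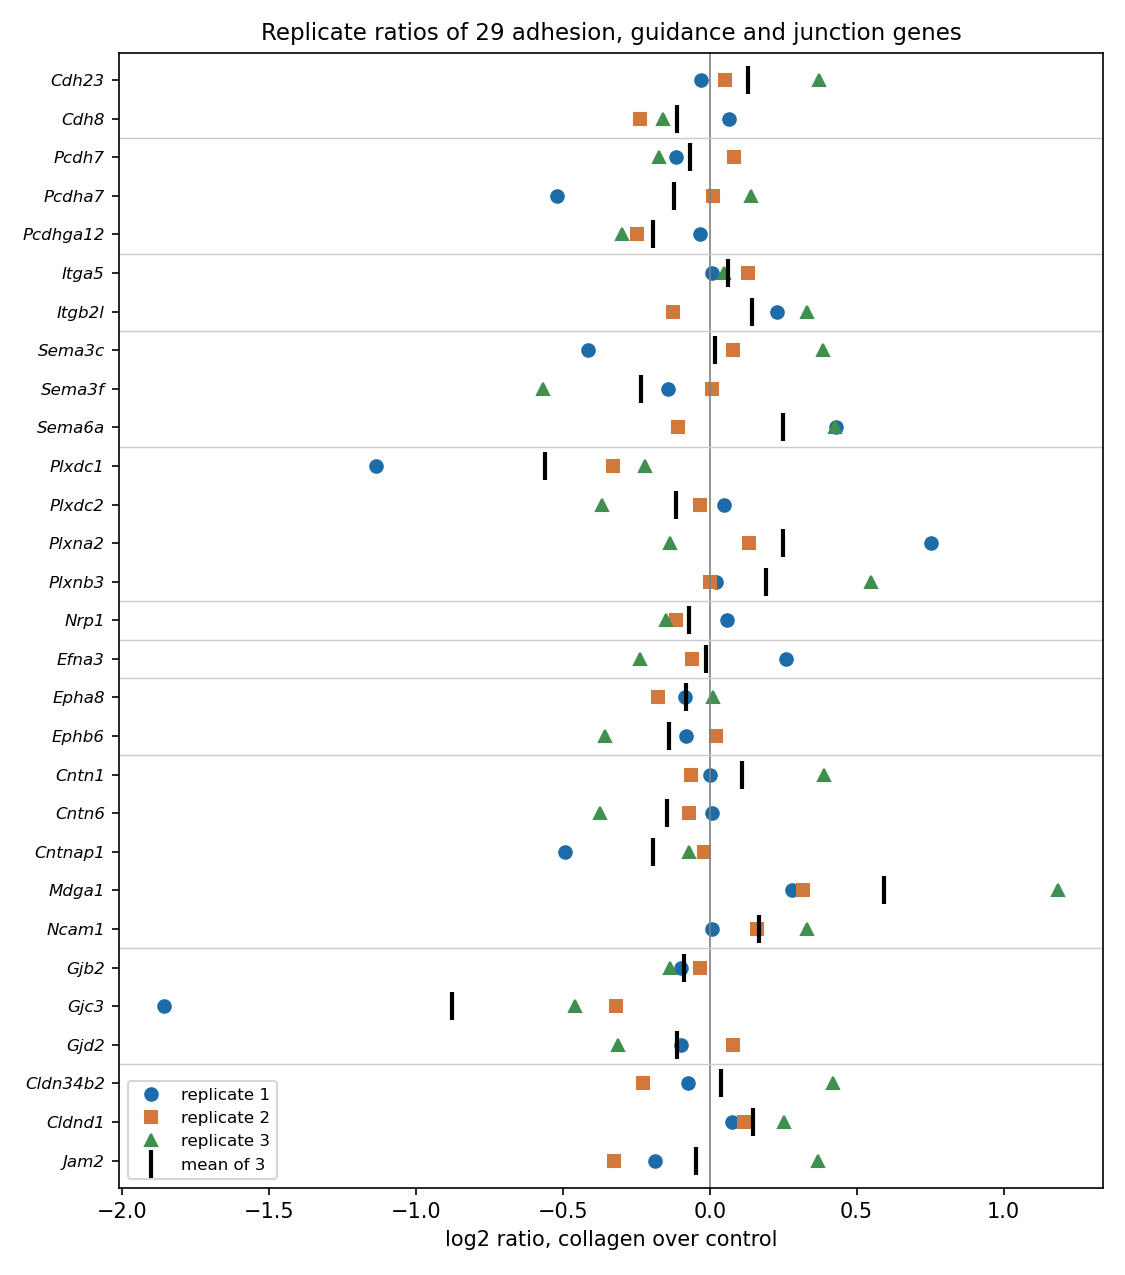
Log2 ratio of collagen over control (x axis) for the 29 genes named by rule, in rows grouped by family with thin lines between families; circles, squares and triangles are replicates 1, 2 and 3 and the black bar is their mean. Gjc3 and Plxdc1 lie furthest to the left through replicate 1, at -1.86 and -1.14, and Mdga1 furthest to the right through replicate 3, at 1.18.

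Gjc3 codes for connexin 29, a gap junction protein of myelinating glia, and had the largest mean ratio in size among the members. Its replicates stood at -1.86, -0.32 and -0.46, a mean of -0.88 ± 0.85 (SD, n = 3; limma adjusted p = 0.827) with a 95% interval of -1.62 to -0.14. Replicate 1 held most of this mean, while the other replicates lay close together. Arrays with collagen RNA in Cy5 gave -1.01 in the second pair of replicate 1, 0.04 and -1.58 in replicate 2 and -2.57 in replicate 3. Arrays with collagen RNA in Cy3 gave 1.02 and -2.71 in replicate 1, -0.42 and 0.69 in replicate 2 and 1.65 in replicate 3. The Cy5 array of the first pair of replicate 1 had no ratio. Replicate 1 of Gjc3 therefore rests on its second pair, and the 1.02 is not part of it. The arrays of a pair had opposite signs in replicate 2 and in replicate 3, and the pair with both arrays below 0 was the second one of replicate 1. On its Cy3 array the log2 intensity of Gjc3 after normalisation was 17.38 for collagen and 20.09 for control. On its Cy5 array it was 18.99 for collagen and 19.99 for control. The ratio of channel B over A stood at 0.85 in replicate 1, -0.45 in replicate 2 and -2.11 in replicate 3, so the channel ratio of Gjc3 did not keep a sign.

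Plxdc1 codes for a membrane protein with a plexin-like domain that is known from tumour vessels. It stood at -1.14 in replicate 1, -0.33 in replicate 2 and -0.22 in replicate 3, a mean of -0.56 ± 0.50 (SD, n = 3; limma adjusted p = 0.827; 95% interval -1.02 to -0.10). The low mean came from 2 of 10 arrays. The first was the Cy3 array of the second pair of replicate 1, at -4.42, with a log2 intensity of 16.59 for collagen and 21.01 for control. The other was the Cy5 array of the second pair of replicate 2, at -1.24, where only 1 scan gave a ratio. The remaining arrays lay between -0.30 and 0.15. Within replicate 1 the first pair averaged -0.07 and the second -2.20, and within replicate 2 they averaged 0.01 and -0.67.

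Mdga1 codes for a cell surface protein anchored in the membrane by a lipid, which binds neuroligin and limits the formation of inhibitory synapses. Its replicates stood at 0.28, 0.32 and 1.18, a mean of 0.59 ± 0.51 (SD, n = 3; limma adjusted p = 0.827; 95% interval 0.12 to 1.06). All 6 arrays with a ratio were above 0. Cy5 arrays gave 0.25 in replicate 1, 0.60 in replicate 2 and 0.35 in replicate 3, and Cy3 arrays gave 0.31, 0.04 and 2.02. The highest value, of the Cy3 array of replicate 3, rests on 1 of 3 scans. There the log2 intensity was 17.49 for collagen and 15.47 for control. The median signal over all probes of that array was 0.696 times the background, against 0.745 to 1.77 times on the other arrays. The other arrays of Mdga1 lay between 0.04 and 0.60.

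Gjc3 and Plxdc1 also share a place on the slide. Their spots are in the last 2 of 48 print blocks, the groups of spots printed by 1 pin. Of the tested members, Sema3c and Itga5 are there too, and neither had a ratio on the Cy3 array of the second pair of replicate 1. On the Cy3 array of the second pair of replicate 1, 40 of the 129 probes with a ratio in these blocks differed over 2-fold between channels (31.0%), against 78 of 6192 probes in the rest of that array (1.26%). The background of channel B in these blocks had a median 6.02 times that of the rest, against 0.726 to 2.08 times on the other 9 arrays. The local background of channel B was 11.7 times the array's median at Plxdc1 and 5.30 times at Gjc3; in channel A it was 0.996 and 1.67 times. Without these blocks on that array, Plxdc1 averaged -0.21 and Gjc3 had no value in replicate 1 and was not tested. The count over 0.5 was then 1 of 43 members, Mdga1 (2.33%), against 8 of 4119 probes (0.194%), in place of 3 of 44 and 13 of 4139. With a ratio required in at least 2 scans of an array, the count was also 1 member, Gjc3 at -0.92, and Mdga1 and Plxdc1 no longer had all 3 replicates and were not tested. Large ratios were also more frequent in these 2 blocks on other arrays. On the Cy5 array of the second pair of replicate 2 they made up 16.0%, against 2.78% in the rest, and on the Cy5 array of replicate 3 11.7%, against 3.24%. Plxdc1 at -1.24 and Gjc3 at -1.58 and -2.57 come from these arrays, where the blocks were not left out. The same held for arrays on which Gjc3 was above 0. On the Cy3 array of replicate 3, with Gjc3 at 1.65, the share was 19.1%, against 11.8% in the rest. With Gjc3 at 0.69, on the Cy3 array of the second pair of replicate 2, it was 8.40%, against 1.81%. With Gjc3 at 1.02, on the Cy3 array of the first pair of replicate 1, it was 6.93%, against 4.03%. The share was lower in the blocks only on the Cy5 array of the second pair of replicate 1 (1.13%, against 1.52%). Other blocks could have high shares too, up to 64.2% in block 21 of the Cy5 array of the first pair of replicate 1.

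**Figure D2:**
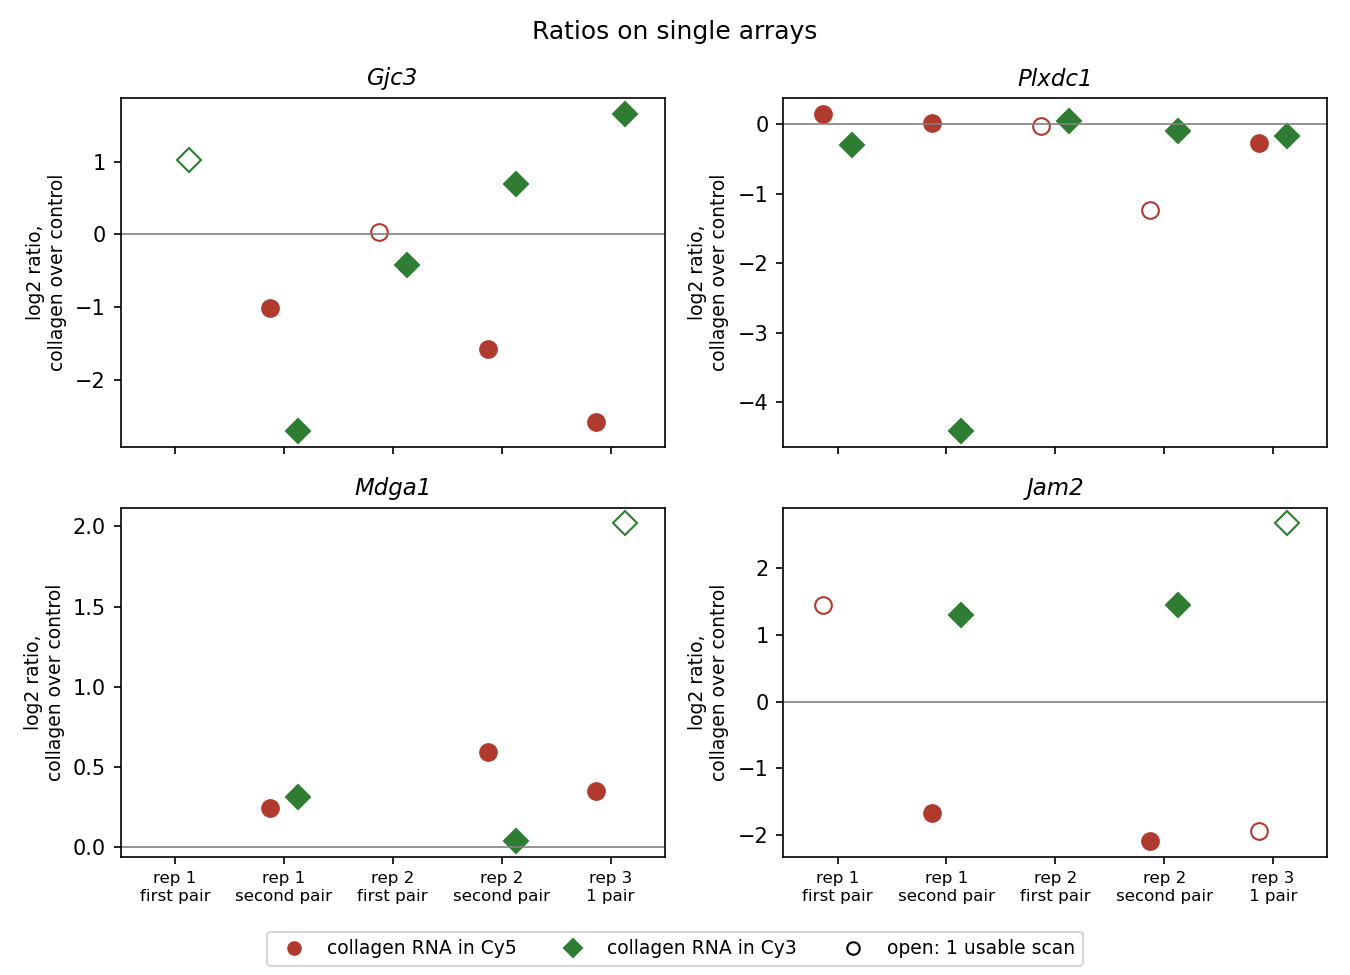
Log2 ratio of collagen over control (y axis) on single arrays for Gjc3, Plxdc1, Mdga1 and Jam2, by replicate and dye-swap pair (x axis); circles are arrays with collagen RNA in Cy5, diamonds arrays with collagen RNA in Cy3, and open symbols rest on 1 scan. Plxdc1 lies near 0 except at -4.42 and -1.24, and Jam2 lies on opposite sides of 0 for the dyes except on 1 open circle at 1.44.

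**Figure D3:**
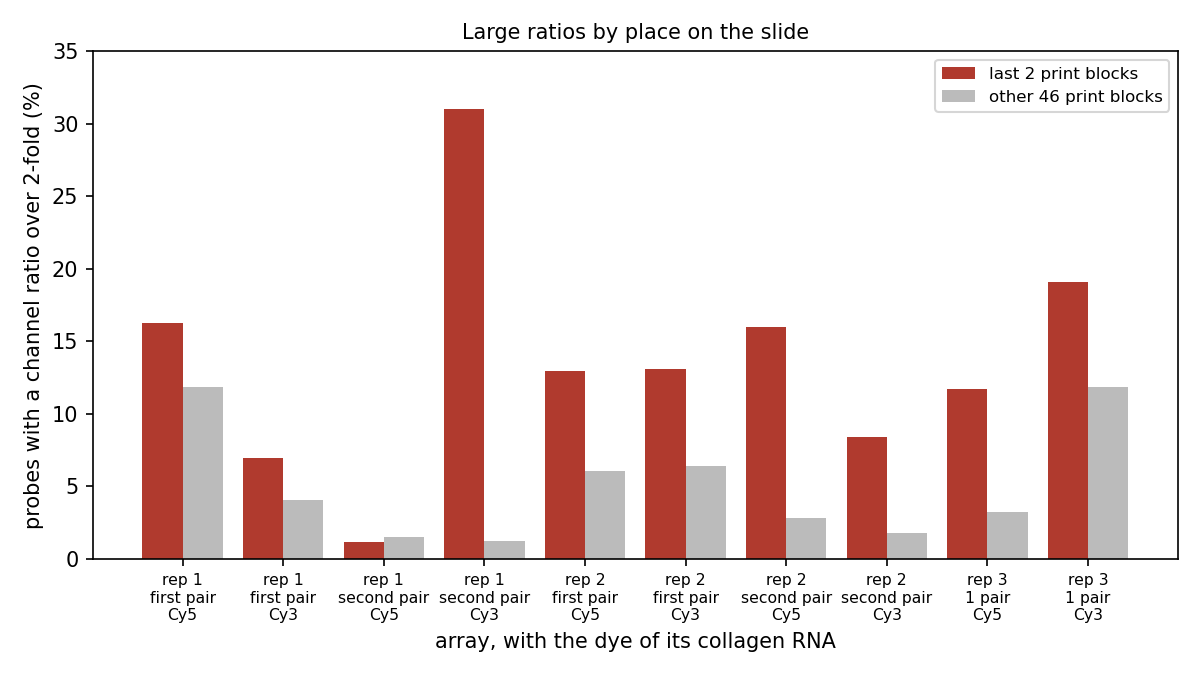
Share of probes whose channels differed over 2-fold (y axis, percent), for each array with the dye of its collagen RNA (x axis); dark bars are the last 2 print blocks, which hold Gjc3 and Plxdc1, and light bars are the other print blocks. On the Cy3 array of the second pair of replicate 1 the bars stand at 31.0% and 1.26%.

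The families are given with the number of tested members that averaged above 0, followed by the range of that number under 4 other normalisations (normexp background correction, median centring, print-tip loess and scaling between arrays). Among the classical cadherins and their relatives, 4 of 15 probes were tested, with 2 above 0 (1 to 2 otherwise), a median of -0.01 and none called. Cdh23, a long cadherin known from the tip links of hair cells, stood at -0.03, 0.05 and 0.37 (0.13 ± 0.21). Cdh8, a synaptic cadherin, stood at 0.06, -0.24 and -0.16 (-0.11 ± 0.16). Neither kept its sign in all replicates. Cdh13, the T-cadherin that lacks a membrane-spanning part, averaged -0.06 ± 0.06, and its second probe had no replicate value. The 4 cadherins measured in 2 replicates ranged from -0.11 to 0.50, the upper end being Cdh10, at 0.22 in replicate 1 and 0.78 in replicate 3.

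Of 15 protocadherin probes, 5 were tested, with 0 above 0 (1 to 2 otherwise), a median of -0.07 and none called. The members that turned include Pcdha7, at 0.04 with print-tip loess, and Pcdh7, at 0.00 with median centring. Pcdhga12, of the clustered family that gives neurons their surface identity, stood at -0.03, -0.25 and -0.30 (-0.19 ± 0.14) and was the one tested protocadherin below 0 in every replicate. Pcdha7, of the alpha cluster, stood at -0.52, 0.01 and 0.14 (-0.12 ± 0.35). Its pairs in replicate 1 were alike, at -0.51 and -0.53, and the other replicates did not share the low value. Pcdh7 stood at -0.12, 0.08 and -0.17 (-0.07 ± 0.13). For Pcdh8, the tested probe stood at 0.06, 0.04 and -0.10, and the second probe at -0.25 and -0.02 in replicates 1 and 2. Genes of the clusters share constant exons, and the position of these probes in their transcripts was not analysed here.

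Of 11 probes for neural adhesion proteins of the immunoglobulin type and contactin-associated proteins, 5 were tested, 3 above 0 (2 to 3 otherwise), with a median of 0.11. Beside Mdga1, Ncam1, the neural cell adhesion molecule, stood at 0.01, 0.16 and 0.33 (0.17 ± 0.16), and at -0.04 with median centring. Its 6 arrays ranged from -0.18 to 0.49. Cntnap1, which with contactin 1 ties the myelin loops to the axon beside the node, stood at -0.49, -0.02 and -0.07 (-0.19 ± 0.26). Its partner Cntn1 stood at 0.00, -0.06 and 0.39 (0.11 ± 0.24), and Cntn6, a contactin of synapses, at 0.01, -0.07 and -0.37 (-0.15 ± 0.20). The replicate furthest from 0 was replicate 1 for Cntnap1 and replicate 3 for Cntn1 and Cntn6.

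Among guidance cues, 6 of 13 semaphorin probes were tested, 4 above 0 (2 to 3 otherwise), with a median of 0.01, which lay between -0.09 and -0.02 under the other normalisations. Sema6a, a membrane-bound semaphorin, stood at 0.43, -0.11 and 0.43 (0.25 ± 0.31). Its pairs in replicate 1 were unlike, with 0.86 in the first and 0.00 in the second. Sema3f, a secreted cue, stood at -0.14, 0.01 and -0.57 (-0.23 ± 0.30), and the secreted Sema3c at -0.41, 0.08 and 0.39 (0.02 ± 0.40). Sema6b had replicates of both signs, 0.13, -0.36 and 0.53, while Sema4a and Sema5b stayed within -0.09 and 0.15. The 4 semaphorins with 2 replicates ranged from -0.36, for Sema3b, to 0.19.

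Of the receptors, 6 of 8 probes for plexins and Plxdc proteins were tested, 3 above 0 (2 to 3 otherwise), with a median of -0.01. Plxna2, a receptor for secreted and class 6 semaphorins, stood at 0.75, 0.13 and -0.14 (0.25 ± 0.46). Replicate 1 rests on its first pair there, in which the Cy5 array stood at 1.28 and the Cy3 array at 0.22. Plxnb3 stood at 0.02, 0.00 and 0.55 (0.19 ± 0.31) and Plxdc2 at 0.05, -0.03 and -0.37 (-0.12 ± 0.22). Plxnb2 and Plxnc1 lay between -0.09 and 0.05 in every replicate. The neuropilin gene Nrp1, a co-receptor for secreted semaphorins, stood at 0.06, -0.11 and -0.15 (-0.07 ± 0.11).

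Of 8 Eph receptor probes, 4 were tested, with 0 above 0 (0 to 1 otherwise), a median of -0.08 and none called. Ephb6, a receptor whose kinase domain is inactive, stood at -0.08, 0.02 and -0.36 (-0.14 ± 0.20), and Epha8, known from the wiring of the superior colliculus in the midbrain, at -0.08, -0.17 and 0.01 (-0.08 ± 0.09). Epha4 was at -0.23, -0.21 and 0.21 and Epha5 at -0.16, -0.09 and 0.14, so that none of the 4 kept 1 sign. The single tested ephrin of 5 probes, Efna3, stood at 0.26, -0.06 and -0.24 (-0.01 ± 0.25).

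Of 11 connexin probes, 4 were tested, 1 above 0 (0 to 1 otherwise), with a median of -0.10. Beside Gjc3, Gjb2, the connexin 26 of meninges and astrocytes, stood at -0.10, -0.03 and -0.13 (-0.09 ± 0.05), below 0 in every replicate with the 95% interval at -0.27 to 0.10. The arrays of each of its pairs had opposite signs. Cy5 and Cy3 arrays gave -0.43 and 0.22, then 0.10 and -0.27 in replicate 1, -0.60 and 0.54 in replicate 2 and -1.36 and 1.10 in replicate 3. Its ratio of channel B over A averaged -0.62 ± 0.58 (limma adjusted p = 0.220). Gjb6, an astrocyte connexin, averaged 0.02 ± 0.18. Gjd2, the connexin 36 of electrical synapses between neurons, stood at -0.10, 0.08 and -0.31 (-0.11 ± 0.20).

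Claudin and Jam probes were the most numerous, at 21, and 5 were tested, 4 above 0 (3 to 4 otherwise), with a median of 0.05. Cldnd1, a claudin-domain protein, stood at 0.08, 0.12 and 0.25 (0.15 ± 0.09) and was above 0 in every replicate. Within its pairs, Cy5 and Cy3 arrays gave 0.31 and -0.16 in replicate 1, 0.36 and -0.13 in replicate 2 and 0.24 and 0.27 in replicate 3. Its ratio of channel B over A averaged 0.16 ± 0.15. Cldn34b2 stood at -0.07, -0.23 and 0.42 (0.04 ± 0.34) and Cldn10 at -0.15, -0.08 and 0.55 (0.10 ± 0.39). Cldn11, the tight junction protein of the myelin sheath, stood at -0.05, 0.07 and 0.13 (0.05 ± 0.09) with a signal 5.46 times the background. Cldn11 and Gjc3 are both expressed by oligodendrocytes. The other oligodendrocyte and myelin markers, listed without members of the set, gave 5 measured of 20, with 0 above 0 (0 to 2 otherwise) and medians of 0.03, -0.05 and -0.27 in replicates 1, 2 and 3; their part in the ratio of Gjc3, which was lowest in replicate 1, was not tested.

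Jam2 codes for a junctional adhesion molecule of vessel endothelium. It stood at -0.19, -0.32 and 0.37, a mean of -0.05 ± 0.37 (SD, n = 3). Arrays with collagen RNA in Cy5 gave 1.44 and -1.67 in replicate 1, -2.09 in replicate 2 and -1.94 in replicate 3, and arrays with collagen RNA in Cy3 gave 1.29, 1.44 and 2.67. In 6 of 7 arrays channel A was therefore the brighter one, whichever RNA it held. In the Cy3 array of replicate 3 the log2 intensity was 16.99 for collagen and 14.32 for control, and in the Cy5 array of that pair it was 16.25 for collagen and 18.18 for control.

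Integrins had 18 probes, and 3 were tested, with 3 above 0 (1 to 2 otherwise), a median of 0.06 and none called. Itga5, the alpha chain of the fibronectin receptor, stood at 0.01, 0.13 and 0.05 (0.06 ± 0.06). It lay below 0 under each of the 4 other normalisations, between -0.17 and -0.02. Itgb2l, a relative of the leukocyte beta 2 chain, stood at 0.23, -0.13 and 0.33 (0.14 ± 0.24), and Itga7, a laminin receptor chain, averaged 0.02 ± 0.39. The 8 measured in 2 replicates ranged from -0.18 to 0.33; among them Itgam, the microglial and myeloid alpha chain, stood at -0.08 and 0.02 in replicates 1 and 2.

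The ratio of channel B over A was tested in the same way, to give the difference between dyes or channels beside the treatment ratio. Of the 44 members, limma called 2 (4.55%), Jam2 and Sema3c, against 1.33% of all probes (55 of 4139). Jam2 stood at -1.48, -1.77 and -2.30 in the replicates, a channel ratio of -1.85 ± 0.42 (SD, n = 3; limma adjusted p = 0.0154). Sema3c stood at -0.83, -0.69 and -1.10, a channel ratio of -0.88 ± 0.21 (limma adjusted p = 0.0337). Their ratios of collagen over control averaged -0.05 and 0.02. The replicate values leave out arrays whose partner had no ratio, and on 1 such array of each gene, both in replicate 1 and from 1 scan, channel B was the brighter one: Jam2 stood there at 1.44 and Sema3c at 0.32, both with collagen RNA in Cy5. Over single arrays channel A was brighter on 6 of 7 for Jam2 and on 7 of 8 for Sema3c. In a fit of single arrays with the replicate number as a block neither was called, Jam2 at -1.44 (limma adjusted p = 0.0709) and Sema3c at -0.66 (limma adjusted p = 0.0560). With normexp or median centring neither was called either. Sema3c was also not called with print-tip loess (limma adjusted p = 0.103), without replicate 2 (limma adjusted p = 0.0663) or without replicate 3 (limma adjusted p = 0.0626). Its spot, like that of Itga5, lies in the last 2 print blocks, and with print-tip loess its channel ratio was -0.37. Just outside the threshold were Cntn1, with a channel ratio of -0.71 ± 0.21 (limma adjusted p = 0.0503), and Itga5, with -0.76 ± 0.25 (limma adjusted p = 0.0535). Cldn34b2 had a larger channel ratio, -1.34 ± 1.04, which did not pass (limma adjusted p = 0.165), with replicates of -0.94, -0.56 and -2.52. Channel ratios below 0 were found for 28 members and above 0 for 16, with a median of -0.09, against 0.02 over all tested probes. If channel A held the control RNA on all arrays, whatever the dye labels, Jam2 and Sema3c would be the members called for the treatment.

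**Figure D4:**
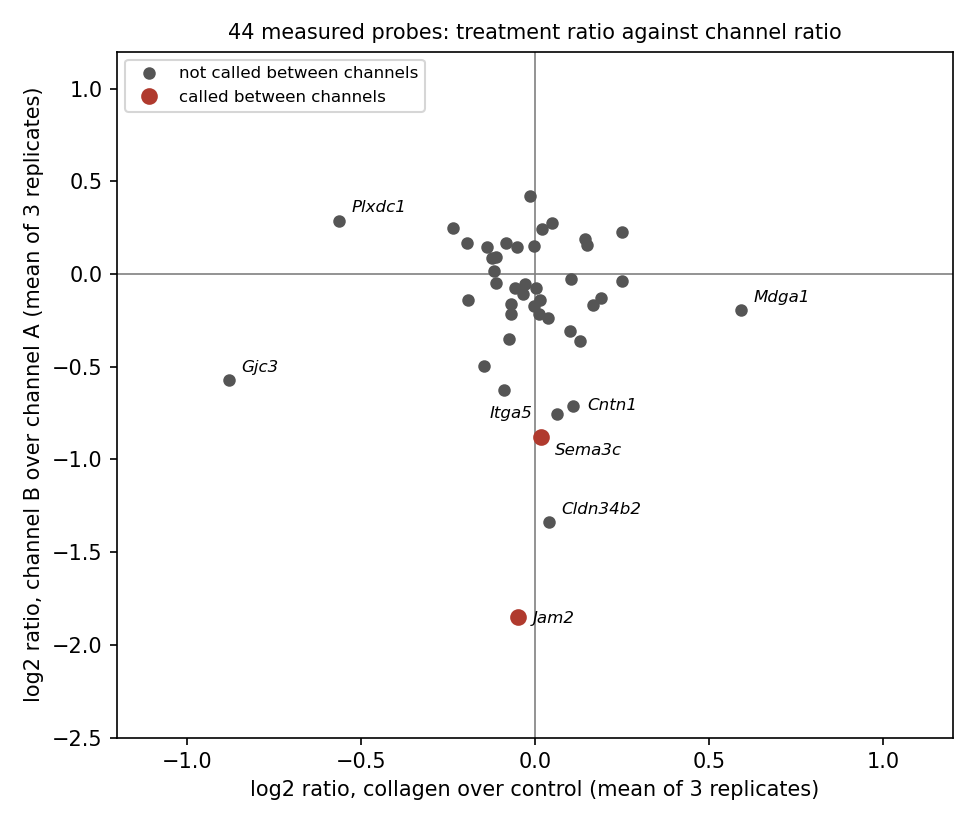
Mean log2 ratio of channel B over A (y axis) against the mean log2 ratio of collagen over control (x axis) for the 44 tested probes, 1 point each, n = 3 replicates. Jam2 and Sema3c, in red, lie at -1.85 and -0.88 on the channel axis and near 0 on the treatment axis, while Gjc3, Plxdc1 and Mdga1 lie furthest out on the treatment axis.

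Across the 44 members the replicates agreed less in the treatment ratio than in the channel ratio. The treatment ratios correlated at 0.376 between replicates 1 and 2, 0.265 between 1 and 3 and 0.0921 between 2 and 3, against 0.110, 0.0293 and 0.0054 over all tested probes. The members include Gjc3 and Plxdc1, at -1.86 and -1.14 in replicate 1 and at -0.32 and -0.33 in replicate 2. Their replicate 1 values include the array with the raised background in the last 2 print blocks. A correlation without these genes was not computed. The channel ratios of the same replicates correlated at 0.613, 0.450 and 0.644, against 0.634, 0.372 and 0.492 over all tested probes. These are descriptions over 44 probes that share their arrays, dyes and loess fits, and probes are not independent replicates. The repeat pairs of the same replicate correlated at 0.0495 over 20 members in replicate 1 and at -0.0970 over 22 members in replicate 2. Over all tested probes these values were 0.0386 and 0.116. The arrays of a pair, both turned to collagen over control, correlated at -0.796 to -0.0944 over 25 to 44 members. Over all tested probes they correlated at -0.681 to -0.353, so the negative sign was not particular to the members.

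Single replicates carried most large values. A ratio over 0.5 in size was found for 4 members in replicate 1 (9.09%, against 2.73% of all tested probes), for 0 in replicate 2 (against 1.01%) and for 5 in replicate 3 (11.4%, against 8.89%). In replicate 1 these were Gjc3, Plxdc1, Plxna2 and Pcdha7, and in replicate 3 they were Mdga1, Plxnb3, Cldn10, Sema6b and Sema3f, so no member passed this size in more than 1 replicate. Replicate 3, of 1 pair, was furthest from 0 for 27 of the 44 members, replicate 1 for 13 and replicate 2 for 4. The median SD over the 3 replicates was 0.206 for the members and 0.145 over all tested probes.

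The spread was widest among the dim members. With all tested probes cut by signal into 3 groups of equal size, 24 of the 44 members fell into the dim group, with a signal of 0.414 to 1.10 times the background, and 10 each into the middle and the bright group. The members' median SD was 0.243 in the dim, 0.116 in the middle and 0.158 in the bright group, against 0.191, 0.144 and 0.113 for all probes. Gjc3, Plxdc1 and Mdga1, at 0.676, 0.702 and 0.625 times the background, were all in the dim group, as were 8 of the 13 probes of that size in all. Of the ratios of tested members on single arrays, 37 of 370 rested on 1 scan (10%), against 5.67% for all tested probes.

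**Figure D5:**
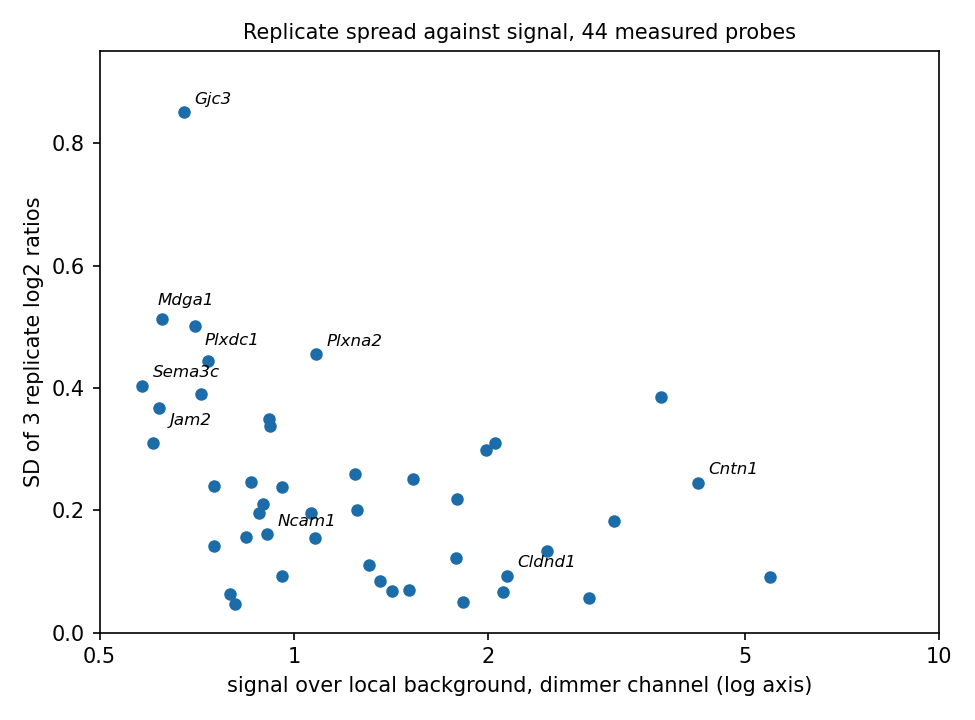
SD of the 3 replicate log2 ratios (y axis) against the median signal over local background in the dimmer channel (x axis, log scale) for the 44 tested probes. Gjc3, Mdga1 and Plxdc1 lie at the dim end, at 0.676, 0.625 and 0.702, with SDs of 0.85, 0.51 and 0.50.

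Other genes of these pathways were listed apart from the set, and none was called or had an unadjusted p under 0.05. Of 30 further guidance cues and receptors, 17 had a probe and 6 were measured, 2 above 0 (2 to 3 otherwise; median -0.10); Neo1, a netrin receptor, stood at -0.12, -0.11 and -0.36 and Dpysl4, a collapsin response mediator, at -0.01, -0.48 and -0.22. Of 40 other neural adhesion genes, 14 had a probe and 6 were measured, 0 above 0 (0 to 3 otherwise; median -0.06), led by Dscam at -0.02, -0.24 and -0.19 and the teneurin gene Tenm1 at -0.06, -0.11 and -0.09. Of 22 genes of the adherens and tight junction plaque, 18 had a probe and 5 were measured, 1 above 0 (1 to 2 otherwise; median -0.05). Its leading genes were the catenin genes Ctnnd2, at -0.13, -0.07 and -0.08, and Jup, at -0.12, 0.00 and -0.14. Of 20 genes of the integrin adhesion complex, 12 had a probe and 6 were measured, 6 above 0 (5 to 6 otherwise; median 0.07). The actin-binding parvin gene Parva stood there at 0.05, 0.05 and 0.46 and the tetraspanin gene Cd9 at 0.07, 0.13 and 0.04. Among 6 pannexin and gap junction partner genes, Panx1, a large-pore channel, was measured, at -0.17, -0.28 and -0.05.

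Cell type markers gave no call. At an unadjusted p under 0.05 stood the B-cell gene Cd79b, at 0.13, 0.20 and 0.54, and the synapsin gene Syn1 of the neuron list, at -0.19, -0.09 and -0.60 (limma adjusted p = 0.827 for both). Medians of the measured markers were -0.07 for oligodendrocytes and myelin (5 of 20, led by Olig1 at -0.15), 0.00 for astrocytes (3 of 11), -0.02 for endothelium and pericytes (2 of 15) and -0.09 for meninges and fibroblasts (2 of 11). They were -0.06 for microglia and macrophages (5 of 12), -0.09 for neurons (7 of 11) and -0.01 for midbrain dopamine neurons (7 of 13). The choroid plexus list rested on Kl alone, at 0.14, no red cell gene of 7 had a probe, and the 3 measured leukocyte genes of 14 had a median of 0.29, which lay between 0.02 and 0.45 under the other normalisations, and ranged from -0.13 to 0.39. The Mag gene stands in both the myelin and the neural adhesion list.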

How the data were processed

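The deposited files of the scanner give background-corrected spot intensities in 2 channels, per their headers, with background intensities, flags and a saturation factor, read as the fraction of unsaturated pixels; normalisation is not stated. The authors' deposited value table holds a score per probe, of unknown scale and direction (column medians -0.00862 to 0.00332; correlation with the channel ratio 0.67 to 0.835 in size, turning with the dye), and was an alternative only. Spots with both intensities above 0 and no X, Y or Z flag were used. Log2 ratios were normalised per scan by loess (limma 3.58.1, R 4.3.3; span 0.3, 4 iterations), averaged over the scans of an array (29 files for 10 arrays), turned to collagen over control, and averaged over pairs, both arrays required, and replicates. Probes measured in 3 replicates were tested against 0 with limma (lmFit, eBayes, two-sided, Benjamini-Hochberg over 4139 probes), after a check on simulated data. Whether replicates came from separate animals is only stated as biological replicates; the number of arrays limits the precision.

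Named were members over 0.5 in size with 1 sign, the 25 lowest unadjusted p-values, channel calls and the 5 largest channel ratios, the leading member of each family, and Gjc3, Mdga1 and Jam2; Cldn11, Cldn10, Cdh13, Cdh10, Itgam and further members named beside them were chosen after their values were seen. Of the 10080 probes, 12 with several symbols and 1002 unnamed here were left out. The members, the 15 gene lists and the alternatives were chosen with earlier results of these data known. Arrays of 1 replicate number were taken as repeat hybridisations, so a fit on single arrays with the replicate number as a block was an alternative. No sequences or coordinates are given, since none were used here.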

Additional observations from a re-analysis of the deposited data

Results flagged for a closer look

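Among the arrays of 1 dye orientation, 42 sets of 4 or 5 values of the named members were screened for a lone array far from the others, and 5 had one; chance marks about 1 in 20. Plxdc1 stood at -4.42 on the Cy3 array of the second pair of replicate 1, with the nearest other Cy3 array at -0.30. This spot had a signal 0.447 times its background and lies in the print blocks described above. Jam2 stood at 1.44 on the Cy5 array of the first pair of replicate 1, from 1 of 3 scans, while the other 3 Cy5 arrays lay between -2.09 and -1.67. Efna3 stood at 1.39 on the same array, also from 1 of 3 scans, with its nearest neighbour at 0.31. Cntn1 stood at 0.0947 on the Cy5 array of the first pair of replicate 2, from 1 of 2 scans, with the others between -0.66 and -0.56. Itga5 stood at -0.997 on the Cy5 array of replicate 3, from 1 of 3 scans, with the others between -0.58 and -0.50.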

How the results depend on the processing

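Under 20 of 21 alternatives, 4 of them added after seeing the data, 0 members were called for collagen over control. The remaining 1, with channel A read as control RNA on all arrays, repeats the test of channel B over A, so its calls were fixed by that test. In it 2 members were called, Jam2 and Sema3c (4.55%, against 1.33% of all probes). There 6 members had a mean over 0.5 with 1 sign (13.6%, against 4.64%). The count over 0.5 with 1 sign, 3 as reported, was 1 with print-tip loess (2.27%, against 0.0966% of all probes). It was 2 without saturated spots (4.65%, against 0.151%), where Plxdc1 averaged -0.20, and 2 with the 5 dye-swap pairs as units (4.55%, against 0.242%). Where members could no longer be measured it says little: it was 0 without the dimmer 50% of probes, which leaves out Gjc3, Plxdc1 and Mdga1, and 0 with the first pair of each replicate or without the second pair of replicate 1, where 1 of the 3, Plxdc1, could be tested. It was 1 with the last scan alone and 1 with at least 2 scans per ratio, where Gjc3 alone of the 3 could be tested, and 1 without the last 2 print blocks of the replicate 1 array, where Plxdc1 and Mdga1 could. The 0 in the authors' value table is void, since its scale is unknown. Its values spread 0.404 to 0.581 times as widely as the ratios used here. Plxdc1 stood in that table at 0.0076 and Gjc3 at -0.20, with a direction that is not stated. Leaving out 1 replicate gave 1 to 4 (2.22% to 8.33%, against 0.718% to 1.40% of all probes). Members called between channels, 2 as reported, numbered 0 with normexp (offset 50) and with median centring, as among all probes. They numbered 0 with the last scan alone, 1 without the dimmer 50%, in the value table and with at least 2 scans per ratio, where Jam2 and Sema3c could not be tested. They numbered 1 with print-tip loess, and 1 with the first pair of each replicate, without the pair that holds the array with 2 scans and without the second pair of replicate 1, where 1 of the 2 genes could be tested. They numbered 4 without saturated spots (9.30%, against 1.79% of all probes) and without the 2 print blocks (9.30%, against 1.70%), and 1 to 8 without 1 replicate, the 8 without replicate 1 (17.8%, against 5.36%). In a fit of single arrays with the replicate block (consensus correlation 0.0365), 4 members were called between channels (Cldn11, Cldn34b2, Cntn1 and Itga5; 9.09%, against 7.97% of all probes), Jam2 and Sema3c were not among them, and 0 were called for collagen over control. Leaving the value table aside, 467 of 502 ratios of the 29 named members moved by less than 1 SD of that member's replicates. Of the 502, 58 changed sign, 18 of them with the letters fixed to the RNA. The 467 include settings that cannot move these ratios, namely probes in at least 2 replicates and a trended, robust variance prior in limma. For members with a wide SD, such as Gjc3 at 0.85, large shifts also count as less than 1 SD. With the arrays turned by the dyes and without the value table, Gjc3 ranged from -1.42 to -0.39, Plxdc1 from -0.81 to -0.09 and Mdga1 from 0.16 to 0.81, with adjusted p-values no lower than 0.680. The tested members' median signal was 1.07 times the background, and what part low signal has in their spread was not tested.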
